A study of Mus musculus with 12 samples.

Results

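The genes described here encode subunits and assembly factors of respiratory complexes I, III and IV, the 3 proton-pumping enzymes of the mitochondrial respiratory chain. They were taken by symbol, as protein-coding genes on the mouse autosomes whose names start with Nduf, Uqcr, or Cox followed by a digit from 4 to 8. The rule used no methylation value. The annotation held 75 such genes, of which 3 (Ndufb11, Ndufa1 and Cox7b) lay on chromosome X and were left out. Of the 72 autosomal genes, 56 had a promoter value, against 11306 of the 20367 autosomal protein-coding genes with a start site. A promoter was the stretch from 1500 bp before to 500 bp after the start, and it had a value where at least 3 of its cytosines were listed in all 12 libraries. DNA methylation had been profiled by reduced representation bisulfite sequencing (RRBS), a method that reads the CpG-rich part of the genome after bisulfite has converted unmethylated cytosines. Methylation is given as a beta value, from 0 (no read methylated) to 1 (every read methylated), and a promoter value is the mean over its cytosines.

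The cells were 2 immortalized mouse embryonic fibroblast (iMEF) lines. Both lines carried R26M2rtTA/+ and TetOcre, by which doxycycline switches on Cre recombinase. The experimental line was Sdhc fl/fl, so that Cre disrupts both copies of Sdhc, a subunit of succinate dehydrogenase (complex II), and the control line was Sdhc fl/wt and keeps 1 intact copy. Each line was sampled once at day 0, 5, 9, 12, 16 and 20 of doxycycline at 1 microgram/mL, giving 6 libraries per line. The groups compared were the 5 experimental libraries of days 5 to 20 and the 6 control libraries. Each group is therefore a time series of 1 cell line, and p-values measure the spread between its libraries. What belongs to the line and what belongs to the loss of Sdhc cannot be told apart from these groups alone. Day 0 values or their difference are therefore given for most promoters named in the comparison of the lines. The libraries listed 932307 (control day 12) to 1716381 (control day 5) cytosines. Since only percentages were deposited, the number of reads behind a value is unknown and no counting interval can be given. The Sdhc promoter, with 8 cytosines, had a beta value between 0 and 0.114 in the 12 libraries, which does not measure whether the gene was deleted.

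Complex I takes electrons from NADH, complex III passes them from ubiquinol to cytochrome c, and complex IV hands them to oxygen. Their core subunits, some of them encoded in the mitochondrial genome, are surrounded by accessory subunits, and assembly factors that leave the finished enzyme help to build them. Complex IV differs from the others in that several of its nuclear subunits come as pairs, a housekeeping form and a form used in muscle, lung, testis or low oxygen. CpG-rich promoters of housekeeping genes are usually free of methylation, whereas promoters used in only a few tissues are often methylated elsewhere.

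A difference in the number of CpGs between such pairs is visible in the 250 bases before the start. These are shown for Cox6b1 and Cox7a2, which are expressed broadly, and for Cox6b2 (testis) and Cox7a1 (heart and muscle). The sequences are from RefSeq on build mm10 (GRCm38.p6), written 5′ to 3′ on the gene's strand, with every CpG in capitals. They span chr7:30626115-30626364 for Cox6b1, chr7:4753095-4753344 for Cox6b2, chr9:79759854-79760103 for Cox7a2 (all minus strand) and chr7:30183921-30184170 for Cox7a1 (plus strand).
Cox6b1: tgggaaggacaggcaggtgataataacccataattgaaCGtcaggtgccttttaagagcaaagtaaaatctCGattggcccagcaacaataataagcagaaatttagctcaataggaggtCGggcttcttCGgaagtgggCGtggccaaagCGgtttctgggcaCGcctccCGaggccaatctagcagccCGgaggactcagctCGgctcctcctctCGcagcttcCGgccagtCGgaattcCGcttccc
Cox6b2: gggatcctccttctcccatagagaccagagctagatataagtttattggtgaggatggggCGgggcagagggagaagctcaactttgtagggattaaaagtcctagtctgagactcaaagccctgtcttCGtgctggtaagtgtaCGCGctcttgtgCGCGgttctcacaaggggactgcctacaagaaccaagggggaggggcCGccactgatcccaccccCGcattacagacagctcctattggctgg
Cox7a2: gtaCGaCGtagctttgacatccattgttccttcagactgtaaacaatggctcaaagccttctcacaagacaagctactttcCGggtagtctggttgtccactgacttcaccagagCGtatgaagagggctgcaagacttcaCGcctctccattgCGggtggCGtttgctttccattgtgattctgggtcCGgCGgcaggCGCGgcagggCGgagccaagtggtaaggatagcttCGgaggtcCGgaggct
Cox7a1: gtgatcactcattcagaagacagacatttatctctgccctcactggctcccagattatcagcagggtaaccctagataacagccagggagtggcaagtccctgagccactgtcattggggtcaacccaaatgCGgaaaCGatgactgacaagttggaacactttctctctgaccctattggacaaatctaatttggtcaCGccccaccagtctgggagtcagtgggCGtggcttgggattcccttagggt
The housekeeping stretches hold 14 CpGs each, Cox6b2 holds 8 and Cox7a1 holds 4. The same contrast was found for the COX8 pair and for Ndufb4, an accessory subunit of complex I, and its relative Ndufb4b. They span chr19:7217617-7217866 for Cox8a (minus strand), chr7:140900447-140900696 for Cox8b (minus), chr16:37654369-37654618 for Ndufb4 (minus) and chr19:25032858-25033107 for Ndufb4b (plus).
Cox8a: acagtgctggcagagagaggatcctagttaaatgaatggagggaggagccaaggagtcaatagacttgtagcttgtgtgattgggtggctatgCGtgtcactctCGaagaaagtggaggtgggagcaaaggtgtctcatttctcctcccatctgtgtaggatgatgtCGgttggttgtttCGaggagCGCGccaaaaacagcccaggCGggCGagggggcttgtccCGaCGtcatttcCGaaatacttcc
Cox8b: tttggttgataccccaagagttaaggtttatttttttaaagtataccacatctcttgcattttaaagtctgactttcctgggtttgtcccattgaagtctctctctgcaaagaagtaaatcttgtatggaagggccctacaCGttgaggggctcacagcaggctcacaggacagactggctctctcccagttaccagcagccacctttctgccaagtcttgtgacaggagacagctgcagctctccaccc
Ndufb4: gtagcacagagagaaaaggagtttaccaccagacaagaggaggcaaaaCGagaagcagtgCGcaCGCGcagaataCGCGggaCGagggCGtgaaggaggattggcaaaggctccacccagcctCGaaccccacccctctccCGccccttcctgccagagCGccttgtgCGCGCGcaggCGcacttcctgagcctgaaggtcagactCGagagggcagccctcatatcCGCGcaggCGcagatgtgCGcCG
Ndufb4b: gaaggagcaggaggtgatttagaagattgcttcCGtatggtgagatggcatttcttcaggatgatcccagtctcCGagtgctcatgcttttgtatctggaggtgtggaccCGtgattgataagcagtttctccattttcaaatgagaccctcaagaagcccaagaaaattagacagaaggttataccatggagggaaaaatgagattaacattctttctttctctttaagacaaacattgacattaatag
Cox8a has 11 CpGs in this stretch and Cox8b, the heart and muscle form, has 1. Ndufb4 has 21 and Ndufb4b has 3. Over the 57 autosomal genes of the rule whose start was in the RefSeq promoter table, the median number of CpGs in the window from 250 bases before to 50 after the start was 19 (lowest 2, highest 39), and over all 16457 such promoters it was 14. The ratio of observed to expected CpGs had medians of 0.829 and 0.597.

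Most promoters of the respiratory genes were almost free of methylation in both lines. The median over the 56 promoters of the mean beta value of the 12 libraries was 0.00639, and over all 11306 promoters it was 0.0160. It was below 0.05 for 45 promoters (80.4%, against 64.3% of all promoters) and above 0.2 for 6 (10.7% against 16.1%). In 42 promoters (75% against 60.8%) no library reached 0.1. Cox6b1, a subunit at the contact between the monomers of the complex IV dimer, and Cox7a2l, which helps join complexes III and IV into supercomplexes, were at exactly 0 in all 12 libraries. The median over the members in each library lay between 0 (control days 12 and 16) and 0.00822 (experimental day 12). The number of members at exactly 0 was 32 in the control day 12 library, which listed the fewest cytosines, and 12 to 31 in the other libraries.

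**Figure D1:**
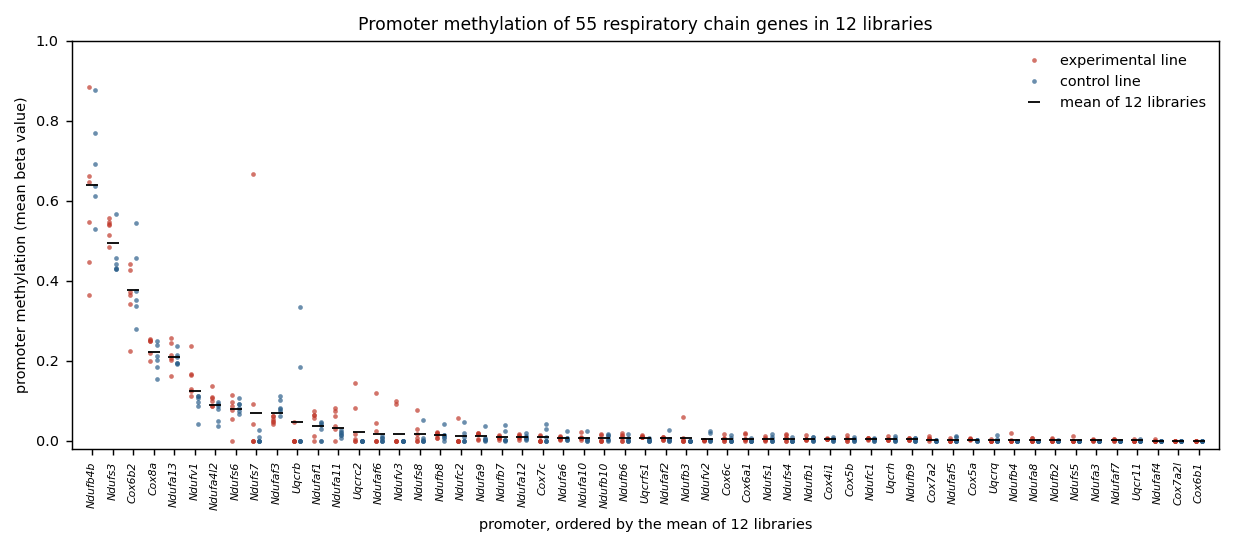
Beta value of each promoter (y axis, from 0 to 1) in the 6 experimental (red) and 6 control (blue) libraries, with promoters ordered by the mean of the 12 libraries (black bar). Of the 55 promoters drawn, the first 5 had means above 0.2, and the points of both lines lie near 0 for most of the others.

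By role, the median was 0.00404 for the housekeeping subunits of complex IV and 0.00478 for complex III. It was 0.00581 for the assembly factors of complex I and 0.00669 for its accessory subunits. The complex I core subunits were more mixed. All 6 complex III promoters with a value had means below 0.05. They included Uqcrfs1, the Rieske iron-sulphur protein, at 0.00619, Uqcrh, the hinge protein, at 0.00336, and Uqcrb, a ubiquinone-binding subunit, at 0.0472. Of the 23 accessory subunits of complex I, 21 were below 0.05, and the highest was Ndufa13 at 0.210. Of the 7 assembly factors of complex I, 6 were below 0.05, and the highest was Ndufaf3 at 0.0686. The 7 core subunits of complex I, some of which carry its flavin and iron-sulphur centres, had a higher median (0.0695). That median is the value of Ndufs7, which stood at 0.667 in experimental day 9 and had a median of 0 over its 12 libraries. Ndufs3 and Ndufv1 lay above it, but within 500 bp of the start their means were 0.00819 and 0.0319. Of these 7, 3 were below 0.05. Of the 9 housekeeping subunits of complex IV, 8 were below 0.05, and the exception was Cox8a at 0.222. The 2 promoters of tissue-specific or inducible forms that had a value were Cox6b2 at 0.376 and Ndufa4l2 at 0.0888. Both were above the 8 housekeeping subunits below 0.05, but Ndufa4l2 was below Cox8a. These are descriptions of levels, and no test was made between roles.

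Only 2 of the 8 tissue-specific or inducible forms had a promoter value. Cox7a1, Cox7b2 and Cox8b had no cytosine listed in any library, so their methylation was not measured here. Cox8c had 4 cytosines listed in 2 libraries and none listed in all 12. Ndufa4, the partner of Ndufa4l2, had 64 cytosines listed in at least 1 library but 0 listed in all 12.

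The Cox6b pair was the only pair with both promoters measured, and the testis form was partly methylated in every library. Cox6b2 (promoter at chr7:4752595-4754594) had 8 measured cytosines, 290 to 379 bp after the start. Its beta value at days 5, 9, 12, 16 and 20 of the experimental line was 0.441, 0.365, 0.373, 0.223 and 0.343. In the control line it was lowest at day 20 (0.279), with a median of 0.363 and a highest value of 0.543 at day 12. The values of the lines overlapped, and at day 0 they were 0.427 (experimental) and 0.352 (control). Cox6b1 was at 0 in all 12 libraries over 9 cytosines, which lay from 24 bp before to 50 bp after the start. Cox6b2 was thus 0.376 ± 0.0840 (SD, n = 12 libraries) higher than Cox6b1, in 12 of 12 libraries. The measured cytosines of the pair lie at unlike distances from the start, so isoform and position cannot be told apart in this difference. Within the experimental line the difference was 0.362 ± 0.0779 (SD, n = 6) and within the control line 0.391 ± 0.0946 (SD, n = 6). Because Cox6b1 had no value above 0, the planned exact 2-sided sign-flip permutation test could return only its smallest p, 0.000488, and it adds nothing to these values. When every cytosine listed in a library was averaged, whether or not the other libraries listed it, Cox6b1 (20 cytosines in all) was above 0 in 8 of 12 libraries, with a median of 0.0528 and a highest value of 0.0784. On that average Cox6b2 ran from 0.193 to 0.543. No single Cox6b2 cytosine was at either end of the scale on average. The mean over the 12 libraries ran from 0.240 to 0.670 over the 8 cytosines. Of this promoter the measured part lies after the start, outside the stretch printed above.

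Ndufa4l2, a relative of the complex IV subunit Ndufa4 that is known for its induction in low oxygen, had 26 measured cytosines between 267 bp before and 205 bp after the start used. At days 5, 9, 12, 16 and 20 of the experimental line its beta value was 0.108, 0.136, 0.0868, 0.108 and 0.0876. The control line ran from 0.0370 (day 12) to 0.0969 (day 16) with a median of 0.0827. The values overlapped, and the M-value difference of 0.56 (SE 0.26) was not past the threshold (adjusted p = 0.295, limma). At day 0 the experimental line was 0.00635 higher than the control line. Averaged over every cytosine a library listed, Ndufa4l2 (46 in all) ran from 0.0677 to 0.276 with a median of 0.197. The start of Ndufa4l2 was taken from the edge of its RefSeq gene, whose span of 7881 bp is longer than the 2214 bp of an earlier annotation, and whether the window holds the start in use was not tested.

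Cox4i2 (lung and low oxygen) and Cox6a2 (heart and muscle) lay just outside the rule, with 2 cytosines each, and are described without a test. Both were highly methylated in every library. The Cox4i2 mean ran from 0.696 to 1.00 with a median of 0.926, over cytosines 722 bp before and 412 bp after the start. The Cox6a2 mean ran from 0.609 to 1.00 with a median of 0.917, over cytosines 185 and 203 bp after the start. The Cox6a2 values were 0.609 to 0.929 at days 5 to 20 of the experimental line, and 0.654 (day 0) to 1.00 in the control line. Their housekeeping partners were near 0. Cox4i1 had a highest value of 0.00934 in 12 libraries over 63 cytosines, and Cox6a1 had a highest value of 0.0195 over 18 cytosines. On the average over every cytosine a library listed, Cox4i2 had 13 cytosines in all and values of 0.593 to 0.871. Cox6a2 likewise had 13 and values of 0.618 to 1.00. That average, here and above, rests on different cytosines in each library, and it was added after the first values were seen. Of the pairs or part-pairs measured, Cox7a2, the broadly expressed partner of Cox7a1, had a highest value of 0.0105 over 38 cytosines. The promoters with 3 cytosines, just inside the rule, were those of Cox7c, Ndufb4b, Ndufs7 and Uqcrb. The third promoter just outside the rule, that of the complex I accessory subunit Ndufa2, was at 0 in 11 libraries and at 0.0303 in control day 20.

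**Figure D2:**
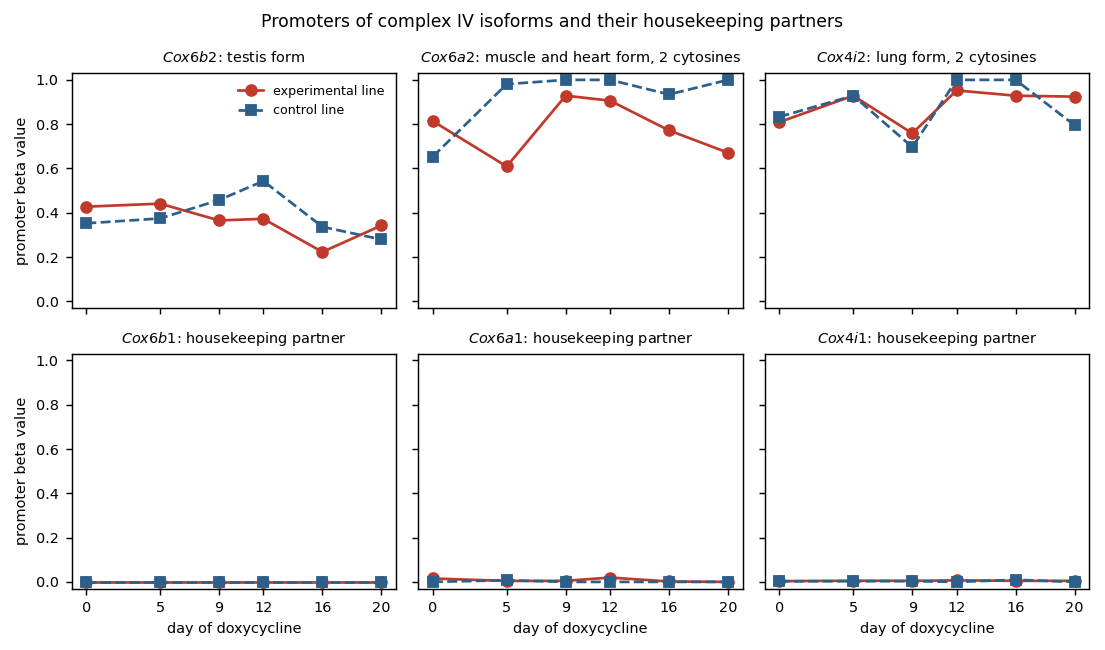
Promoter beta value (y axis, from 0 to 1) against day of doxycycline (x axis) for 3 tissue-specific complex IV forms (upper row) and their housekeeping partners (lower row), in the experimental (red circles) and control (blue squares) lines. Cox6a2 and Cox4i2 rest on 2 cytosines each. Every point of the upper row is above 0.2 and every point of the lower row is below 0.02.

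The other promoters with high means fell into 2 kinds, those methylated only far from the start and those methylated near it. Ndufs3, a core subunit of complex I, had a mean of 0.495 over 7 cytosines (promoter at chr2:90904222-90906221). Kbtbd4 has its start on the opposite strand within the same window. Its 4 cytosines from 1043 to 1152 bp upstream had a mean of 0.859. Its 3 cytosines within 250 bp of the start had a mean of 0.00819. Those 3 lie in the CpGs in capitals in the 250 bases before the start (chr2:90904722-90904971, minus strand, RefSeq, mm10), while the other CpGs in small letters were not measured in all libraries.
Ndufs3: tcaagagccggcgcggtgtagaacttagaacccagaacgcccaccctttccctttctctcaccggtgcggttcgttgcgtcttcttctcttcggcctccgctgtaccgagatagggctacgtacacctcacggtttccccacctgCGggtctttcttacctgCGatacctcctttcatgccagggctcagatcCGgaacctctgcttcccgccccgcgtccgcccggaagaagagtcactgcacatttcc
Cox8a, a small housekeeping subunit of complex IV, showed the same arrangement. Its 3 cytosines between 1319 and 1359 bp upstream had a mean of 0.882, and the 9 cytosines from 36 to 143 bp after the start had a mean of 0.00226. Ndufv1, the flavin-binding core subunit of complex I, had a single cytosine 589 bp upstream at 0.859 and a mean of 0.0319 over the other 8. Ndufaf3, an assembly factor of complex I, had a mean of 0.383 over 5 cytosines more than 500 bp upstream and of 0.00819 over the other 26. With the window narrowed to 500 bp on each side of the start, the promoter means of these 4 genes fell to 0.00819 for Ndufs3, 0.00226 for Cox8a, 0.0319 for Ndufv1 and 0.00819 for Ndufaf3.

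Methylation came closer to the start in 2 other complex I genes. Ndufs6, an accessory subunit of the matrix arm, had a mean of 0.0784 over 20 cytosines, and 2 of these, 435 and 475 bp upstream, had means of 0.546 and 0.755. Ndufa13, also known as GRIM-19, had a mean of 0.210 over 33 cytosines (chr8:69901521-69903520). Its 7 cytosines with means above 0.5 lay between 234 and 604 bp upstream, with up to 0.849 at 443 bp upstream, and 19 of the 33 were below 0.1. Tssk6, a testis kinase gene, has its start on the opposite strand within the same window.

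Ndufb4b had the highest mean of the 56 promoters, 0.639, over 3 cytosines 22 to 59 bp after the start (chr19:25031608-25033607). It varied widely between libraries, with 0.885, 0.647, 0.365, 0.446 and 0.661 at days 5 to 20 of the experimental line. The control line ran from 0.528 (day 20) to 0.877 (day 12) with a median of 0.664. These ranges overlapped, and the SD over the 12 libraries was 0.157. Ndufb4, whose name it shares, was at most 0.0181 in the 12 libraries over 13 cytosines. Where copies are near-identical, reads may be placed on either gene. How alike these genes are at the measured cytosines was not tested, so the Ndufb4b value is uncertain. The Ndufb4b window also overlaps another gene, Dock8.

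Across the 960 measured cytosines of the 56 promoters, 901 (93.9%) had a mean below 0.1, against 85.6% of the 199044 promoter cytosines of all genes. Of the 25 with a mean above 0.5, which lay in 9 genes, 14 were more than 500 bp upstream, where 55 of the 960 cytosines lay. The other 11 were among the 905 nearer ones. In the 250 bp before the start the member cytosines had a mean of 0.0125 (263 cytosines in 33 genes) and all promoter cytosines a mean of 0.0413. Between 1000 and 1500 bp upstream the means were 0.292 (28 cytosines in 5 genes) and 0.305. Cytosines of 1 gene share their library and their neighbours, and no test was made on them.

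**Figure D3:**
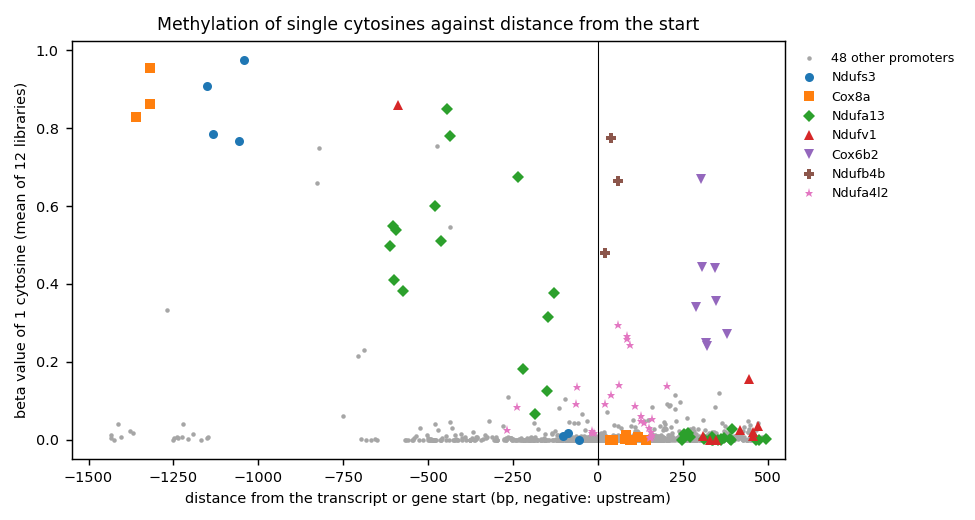
Mean beta value over 12 libraries of 954 measured cytosines of 55 promoters (y axis) against its distance from the start in bp (x axis, negative upstream). The 7 coloured genes have the highest promoter means of those drawn, and the grey points are the other 48 promoters. Ndufs3 and Cox8a are high only beyond 1000 bp upstream, whereas Ndufb4b and Cox6b2 have high values after the start.

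The comparison of the lines asked whether promoters of these genes differed in methylation after the loss of Sdhc. No respiratory promoter passed the threshold. A linear model (limma) was fitted on M-values, the log2 of the methylated over the unmethylated share with 0.01 added to each, over all 11306 promoters. At an adjusted p under 0.05, 230 of all promoters (2.03%) were called and 0 of the 56 members. At an unadjusted p under 0.05 there were 8 of the 56 (14.3%), 7 of them higher in the experimental line, against 17.3% of all promoters. Mean promoter methylation was above that of the control series for 36 members (64.3%), below it for 18 and equal for 2, and it was above it for 63.7% of all promoters. The median M-value difference was 0.17 over the members and 0.19 over all promoters. Of the 56 members, 52 lay between the 5th and 95th percentile of all promoters, which were at -0.89 and 1.36. The beta value difference exceeded 0.1 in either direction for 1 member (1.79%), Ndufs7, and for 6.95% of all promoters.

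**Figure D4:**
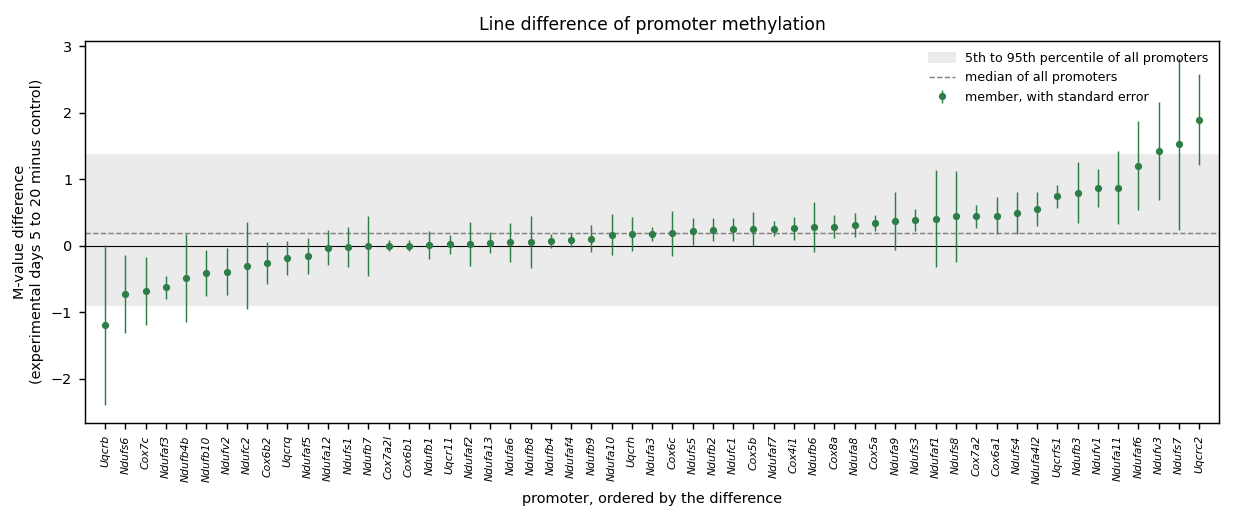
M-value difference of 55 of the promoters (y axis, experimental days 5 to 20 minus control, with standard errors from limma), ordered along the x axis. The grey band spans the 5th to 95th percentile of all 11306 promoters and the dashed line is their median of 0.19. Of the 55 points, 51 lie within the band.

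Uqcrfs1 had the smallest p-value, and its level was very low in both lines. Its beta value over 8 cytosines was 0.0134, 0.00893, 0.0104, 0.0101 and 0.00833 at days 5, 9, 12, 16 and 20 of the experimental line. In the control line it ran from 0 (days 9, 12 and 16) through a median of 0.00139 to 0.00658 at day 0. The 2 groups did not overlap, which was so for 1 of the 56 members (1.79%) and for 3.95% of all promoters. The means were 0.0102 ± 0.00196 (SD, n = 5) and 0.00239 ± 0.00289 (SD, n = 6), which differ by 0.75 in M-value (SE 0.17, adjusted p = 0.0554, limma). At day 0 the experimental line was 0.00219 higher, and it was higher at 6 of 6 days. The promoter passed the threshold without the control day 0 library (adjusted p = 0.0335, limma) and with the experimental day 0 library added (adjusted p = 0.0307, limma).

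Ndufaf3 was the only one of these 8 promoters that was lower in the experimental line, and its direction rested on cytosines more than 500 bp upstream. With the window narrowed to 500 bp on each side its M-value difference was 0.26 (adjusted p = 0.717, limma). Its values over 31 cytosines were 0.0619, 0.0606, 0.0408, 0.0484 and 0.0541 at days 5 to 20 of the experimental line and ran from 0.0604 (day 16) to 0.112 (day 0) in the control line, with a median of 0.0808. The groups overlapped between 0.0604 and 0.0619. The M-value difference was -0.63 (SE 0.18, adjusted p = 0.108, limma). At day 0 the experimental line was already lower, by 0.0645 (0.0473 against 0.112). The largest gaps were at cytosines 690 and 707 bp upstream, with means of 0.0444 and 0.0167 over experimental days 5 to 20 and of 0.421 and 0.414 over the control libraries. Neither cytosine passed the threshold of the fit over all cytosines described below.

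Ndufv1 was higher in the experimental line, with 0.164, 0.237, 0.165, 0.129 and 0.111 at days 5 to 20 and a control range from 0.0417 (day 20) to 0.111 with a median of 0.101. The groups touched at 0.111. The M-value difference was 0.87 (SE 0.29, adjusted p = 0.161, limma) and the experimental line was 0.0287 higher at day 0. Much of the gap lay at 1 of its 9 cytosines, 446 bp after the start, chosen here after its values were seen. That cytosine was at 0 in all 6 control libraries and at 0.328, 0.818, 0.190, 0.256 and 0 at days 5, 9, 12, 16 and 20 of the experimental line. It was already at 0.265 in the experimental line at day 0. Its adjusted p was 0.120 (limma), and 0.00727 without experimental day 20. With the 500 bp window the M-value difference of the promoter was 2.24 (adjusted p = 0.110, limma). Ndufs3 differed by 0.39 (SE 0.16, adjusted p = 0.257, limma), with 0.485 to 0.556 in the experimental series and 0.429 to 0.566 in the control series. With the 500 bp window the M-value difference was 0.82 (adjusted p = 0.304, limma). Its highest control value was that of day 0, when the experimental line was 0.0190 lower. Of the other 4 promoters, 3 were near 0 in both lines. Cox5a and Cox7a2, both subunits of complex IV, and the assembly factor Ndufaf7 had no value above 0.0105 in any library. The fourth, that of Uqcrc2, a core protein of complex III, was at 0 in all 6 control libraries and reached 0.144 in experimental day 20 and 0.0819 in day 9, with the other experimental values at or below 0.0170. At day 0 the experimental line was higher by 0.00586 for Cox5a and 0.00706 for Cox7a2. The differences of the group means were smaller, at 0.00284 and 0.00406. Both lines were at 0 at day 0 for Ndufaf7 and Uqcrc2.

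**Figure D5:**
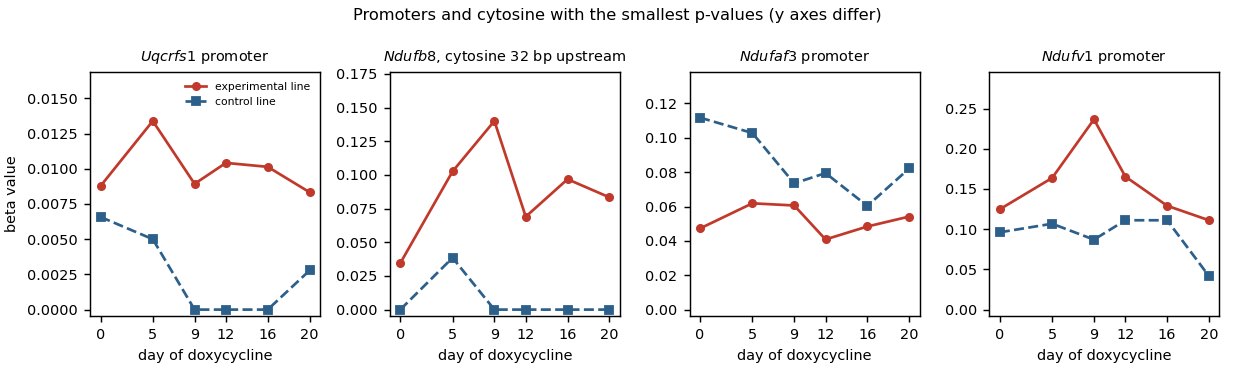
Beta value (y axes, which differ in range) against day of doxycycline (x axis) for the promoters of Uqcrfs1, Ndufaf3 and Ndufv1, which had the smallest p-values, and for the Ndufb8 cytosine 32 bp before the start. The experimental line (red circles) lies above the control line (blue squares) at every day for Uqcrfs1 and the Ndufb8 cytosine, and below it at every day for Ndufaf3.

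Of the 10 promoters with the largest differences in mean beta value, 5 were at or near 0 in most libraries and higher in 1 to 3. They were Uqcrc2, given above, and the following 4. Ndufs7, a core subunit with 3 cytosines, stood at 0.667 in the experimental day 9 library and at 0, 0, 0 and 0.0404 at days 5, 12, 16 and 20. The control values were between 0 and 0.0263 with a median of 0, and the experimental day 0 value was 0.0909. In the day 9 library 2 of its 3 cytosines were at 1.00, a library of 1 line at 1 day that no second library repeats. Uqcrb, also with 3 cytosines, was at 0.333 in control day 12 and 0.185 in control day 5, at 0.0476 in experimental day 12 and at 0 in the other 9 libraries. Ndufv3, a small complex I subunit, was at 0.0926 and 0.100 in experimental days 9 and 12 and at 0 in the other 10. Ndufaf6, an assembly factor, was at 0.0429, 0.0250 and 0.120 in experimental days 12, 16 and 20 and at or below 0.0121 in the others. The adjusted p-values (limma) of the 4 other than Uqcrc2 lay between 0.355 and 0.658.

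For these other promoters with high levels the lines overlapped throughout. The M-value difference was -0.26 (SE 0.32) for Cox6b2, 0.29 (0.17) for Cox8a, 0.05 (0.16) for Ndufa13 and -0.48 (0.66) for Ndufb4b, with adjusted p-values (limma) from 0.422 to 0.908. Cox8a ran from 0.199 to 0.253 in the experimental series and from 0.154 to 0.249 in the control series. Ndufa13 ran from 0.163 to 0.256 and from 0.192 to 0.238. In each case the range over the libraries of 1 line was wider than the gap between the means of the lines. For Cox8a the experimental line was 0.0355 higher at day 0, and the group means differed by 0.0344. The day 0 difference was 0.0191 for Ndufa13 and -0.145 for Ndufb4b.

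Whether the lines drifted apart with time was tested as the difference in slope between the lines, per 10 days, over the 12 libraries. No promoter passed the threshold, 0 of 11306 (0.0%) and 0 of the 56 members. At an unadjusted p under 0.05 there were 4 members (7.14%) against 5.28% of all promoters. The member count was 0 without experimental day 20, 1 without control day 0 and 7 without experimental day 16. Over all 11306 promoters it was 597 in the main fit, and 499, 382 and 654 in these refits, in the same order. The slope on the M-value scale was higher in the experimental line for Ndufaf6 (1.72, SE 0.60), Cox5b (0.82, 0.31) and Ndufaf5 (0.79, 0.28). It was lower for Ndufs6 (-1.57, SE 0.66). Their adjusted p-values (limma) were 0.898 to 0.909. For Ndufs6 the experimental day 20 library was at 0 and the 5 earlier ones between 0.0542 and 0.115. For Cox5b, a zinc-binding subunit of complex IV, no library exceeded 0.0142.

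At single cytosines, 3124 of 508351 varying cytosines (0.615%) and 1 of the 471 in member promoters passed the threshold of the same fit. The other 489 member cytosines were at 0 in all 12 libraries and were not tested. At an unadjusted p under 0.05 there were 26 of the 471, against 61749 (12.1%) of the 508351 varying cytosines. The latter include cytosines outside promoters, so these counts do not compare like sites. The called cytosine lies 32 bp before the start of Ndufb8, an accessory subunit in the membrane arm of complex I, at chr19:44555474. It is in the fourth of the 6 CpGs in capitals, those measured in all libraries, in the 250 bases before the start (chr19:44555443-44555692, minus strand, RefSeq, mm10).
Ndufb8: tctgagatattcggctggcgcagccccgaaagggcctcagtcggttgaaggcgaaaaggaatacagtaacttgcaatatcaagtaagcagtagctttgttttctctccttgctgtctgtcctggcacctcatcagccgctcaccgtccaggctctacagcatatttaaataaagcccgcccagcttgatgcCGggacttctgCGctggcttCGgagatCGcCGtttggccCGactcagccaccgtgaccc
Its beta value was 0.103, 0.140, 0.0690, 0.0968 and 0.0833 at days 5, 9, 12, 16 and 20 of the experimental line. In the control line it was 0 in 5 libraries and 0.0385 at day 5. The means were 0.0983 ± 0.0267 (SD, n = 5) and 0.00641 ± 0.0157 (SD, n = 6), and the experimental day 0 value was 0.0345. The M-value difference was 3.16 (SE 0.51, adjusted p = 0.0253, limma), and it was past the threshold in 10 of 11 refits, each with 1 library removed. The exception was the refit without control day 16 (adjusted p = 0.0523, limma). With only days 5 to 20 and a block by day, it was not past the threshold (adjusted p = 0.210, limma). The 24 cytosines of the Ndufb8 promoter had means of 0.0129 (experimental days 5 to 20) and 0.0140 (control), so the difference was not seen in the promoter value.

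Related genes outside the rule were counted from fixed lists. Of 65 genes of complex V, of further assembly factors of complexes I, III and IV, of the cytochromes c and c1 and of regulators of nuclear respiratory genes, 53 had a promoter value. None was called in either fit, against 2.03% of all promoters between the lines and 0.0% for the slopes. At an unadjusted p under 0.05 between the lines there were 7 of the 53, against 17.3% of all promoters. All 14 measured ATP synthase (complex V) promoters had means of at most 0.0317. The 9 measured regulators were at most 0.0145. Of the 16 measured assembly factors of complex IV, the highest was Cox16 at 0.182. Cox16 had means of 0.250 ± 0.0704 (SD, n = 5 experimental libraries) and 0.0943 ± 0.0739 (SD, n = 6 control libraries), a difference that was not past the threshold (adjusted p = 0.195, limma) and stood at 0.214 at day 0. Among the cytochromes, Cyct, the testis form of cytochrome c, had a mean of 0.772 over 9 cytosines, and Cycs, the somatic form, had a mean of 0.0190 over 5. Cyct never fell below 0.588 and Cycs never exceeded 0.113.

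The promoters were also compared in features that the rule did not use. The start of another protein-coding gene lay in the promoter window of 16 of the 56 members (28.6%), on the opposite strand in all 16, against 15.6% of all promoters with a start on the opposite strand. Among these pairs were Cox4i1 and Emc8, Ndufs1 and Eef1b2, and Uqcrh and Lrrc41. The value of such a promoter belongs as much to the neighbour. Other windows overlapped a neighbouring gene without holding its start. Examples are those of Ndufb4b (Dock8), Cox6b2 (Fam71e2), Ndufa4l2 (Stac3), Ndufaf3 (Dalrd3) and Ndufs6 (Mrpl36). Motifs were searched on both strands of the 300 bases around the start of the 57 members in the promoter table. The core of the nuclear respiratory factor 1 motif (CGCATGCG) was present in 7 members (12.3%) and in 2.59% of all 16457 promoters. A YY1 motif (AAGATGGCG) was present in 6 (10.5%) and in 1.92%, and an ETS motif (CCGGAAG) in 11 (19.3%) and in 12.3%. The first was found in Cox6a1, Ndufa11, Ndufa8, Ndufaf4, Ndufaf5, Uqcr11 and Uqcrc1. Ndufs6 and Ndufs7 held the YY1 motif, and Cox6b1, Cox8a and Ndufs3 held the ETS motif. Most of the 57 members held none of the 3. Among them were Cox5a, Cox5b, Cox7a2, Cox7c and Ndufb4, and also Cox6b2, Cox7a1, Cox7b2, Cox8b and Ndufb4b. The motif counts are matches of letters and do not measure binding.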

How the data were processed

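The authors aligned RRBS reads of genomic DNA to mm10 with Bismark and deposited, per library, the percent methylation of each CpG cytosine, with no read counts. The versions and the coverage behind a value were not given in the sources used here. Per the labels, each library is 1 line at 1 day.

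Beta values are these percentages divided by 100. Every autosomal cytosine that appears in all 12 libraries was kept (606488), of which 98137 (16.2%) had 1 value throughout. These stayed in promoter means and were left out of the fit over cytosines. Starts came from the RefSeq promoter table (46 of the 56 members) or, where it had no row, from the edge of the RefSeq gene (10), with strands from GENCODE vM1. Promoters were compared with limma 3.58.1 in R 4.3.3 on M-values (offset 0.01), with Benjamini-Hochberg adjustment over all promoters or all cytosines and a threshold of 0.05. The groups followed the study's methods, with experimental day 0 left out except in the slopes. The Cox6b pair was compared by an exact sign-flip permutation test. Scripts were tested on simulated data.

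Genes named with values were all isoform-pair genes, the 10 largest line differences, the 5 highest means, the 5 largest SDs and any call, and others (those with the smallest p-values, the largest slopes, or methylation at a distance) were chosen after their values were seen. Members and lists were chosen with earlier results of these data known. Alternatives were other offsets, windows and cytosine filters, a fit on beta values, a day block and leaving out each library. Python 3.11.15, pandas 2.3.3 and matplotlib 3.10.9 were also used. The values of 1 member are not reported here, though it is included in the counts and fits.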

Additional observations from a re-analysis of the deposited data

Results flagged for a closer look

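Groups of libraries were searched by Dixon's ratio for a single library far from the others. This was done for each group with any spread among the 16 promoters named by the rule. The ratio flags about 1 in 20 groups by chance where values are normally distributed. Beta values have a lower bound, and several groups held most of their libraries at it, so that rate does not apply here. The search flagged 10 values in 28 groups, and whether this is more than chance was not tested.

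The widest gap in beta value was that of Ndufs7 in experimental day 9, at 0.667 over 3 cytosines, with the next highest of its group at 0.0404. Ndufs7 in control day 20 stood at 0.0263, next to 0.00926. Uqcrb, also with 3 cytosines, was at 0.0476 in experimental day 12 and at 0 in the other 4 libraries of that series. Ndufs3 in control day 0 was at 0.566, above the other control libraries, which reached 0.457. Cox8a in experimental day 16 was at 0.199, below the next value of 0.250. Ndufv1 in control day 20 was at 0.0417, below the next value of 0.0870.

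The remaining 4 values were all close to 0. Cox4i1 stood at 0.00698 in experimental day 12 and at 0.00934 in control day 16. Cox6a1 stood at 0.0195 in experimental day 12 and at 0.00742 in control day 5, where the other 5 control libraries were at 0. The depth behind these values is unknown.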

How the results depend on the processing

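Of the respiratory promoters, 0 passed the threshold between the lines, and 0 also with M-value offsets of 0.05 and 0.001, on beta values, with at least 5 cytosines, with the 500 bp window, without constant cytosines and with all starts at the gene edge. With all 6 experimental libraries 1 member passed (Uqcrfs1). Without 1 library the number was 0 to 1, with Ndufa11 without experimental day 20 (M-value difference 1.44, adjusted p = 0.0478, limma) and Uqcrfs1 without control day 0. The beta value of Ndufa11 was 0.0141 higher in the experimental line at day 0. An alternative added after the data were seen, days 5 to 20 of both lines with no replicate block, gave 1 (Uqcrfs1). The slope test gave 0 members in all its alternatives. The number of all promoters called was 230, against 150 with offset 0.001, 150 with the 500 bp window, 375 with all 6 experimental libraries and 130 to 254 without 1 library. Of member cytosines 1 passed, and 0 to 2 without 1 library. A second cytosine was called without experimental day 5 (Cox4i1, 164 bp after the start, adjusted p = 0.00126, limma), day 16 (Ndufa4l2, 11 bp before it, 0.0442) and day 20 (Ndufv1, 446 bp after it, 0.00727). Of all cytosines 3124 passed, against 5275 with offset 0.05 and 5954 on beta values. The cause of these changes was not tested.

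Over all 11306 promoters, the deviations of same-day libraries had correlations of -0.0297 to 0.0172. Whether libraries of a day share more than the day number was not tested. With days 5 to 20 and a replicate block by day, 6 promoters and 0 members passed (smallest adjusted p of a member 0.123), and 0 cytosines, 0 of them in members.

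The Cox6b difference was 0.376 with the 500 bp window or with gene-edge starts, and 0.406 with the median over cytosines. Its direction is fixed wherever Cox6b1 is at 0. It could not be computed without constant cytosines, since Cox6b1 then has none. For the 16 promoters named by the rule, none of 640 refitted line differences or slopes passed the threshold.

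Unknown depth limits all values, most of all those resting on 3 cytosines.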
